A study of Mus musculus with 57 samples.

Results

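The clustered protocadherins are 57 genes of the 18088 in the deposited table: every gene whose mouse symbol begins with Pcdha, with Pcdhb and a digit, or with Pcdhg. They form the alpha cluster (14 genes), the beta cluster (21 genes) and the gamma cluster (22 genes), which follow each other on the forward strand of chromosome 18. In the GENCODE annotation of GRCm38 the alpha genes span 36930184 to 37187661, the beta genes 37294812 to 37524479 and the gamma genes 37661793 to 37841873. RNA came from the prefrontal cortex of C57BL/6J mice, male and female, taken on postnatal day 25. Shank3 delta C heterozygotes (HT) were given lithium, fluoxetine or vehicle, and wild-type (WT) mice the same, so that genotype, drug and sex made 12 groups. The drugs reached the pups in their mothers' milk during 3 weeks (postnatal days 3 to 24). The delta C allele is known to lack the C-terminal part of Shank3, a scaffold of the excitatory postsynaptic density. Of the 12 groups, 9 held 5 libraries, HT lithium males and WT lithium females held 4 each and HT vehicle males held 3.

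Clustered protocadherins are cadherin-like adhesion proteins of the neuronal surface. Each neuron is known to use a small set of them, because every variable exon of the alpha and gamma clusters, and every single-exon beta gene, has its own promoter, and CTCF and cohesin loop a few of these promoters to distant enhancers. The resulting set acts as a cell-surface label: homophilic binding between identical sets makes sister branches of one neuron avoid each other. The 5 C-type members (Pcdhac1, Pcdhac2, Pcdhgc3, Pcdhgc4 and Pcdhgc5) lie at the ends of the alpha and gamma clusters and are used more constantly from cell to cell than the others. In bulk cortex a level is therefore a sum over many cells, neurons with different sets among them. A lower level from fewer cells of a type and from less RNA per cell cannot be told apart.

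Alpha members share their constant exons with one another, and so do gamma members, while each beta gene stands alone. Of the 31-base stretches in an alpha member's transcript, 48.4 to 70.2% (median 62.6%) also occurred in another member, against 41.7 to 67.8% (median 47.4%) in the gamma cluster and 4.45 to 22.5% (median 12.01%) in the beta cluster. How reads from the shared exons were divided among alpha or gamma members therefore enters each of their values, and single-member values of these clusters are uncertain to that extent. The symbol Pcdha11 belonged to 2 gene identifiers, which are given separately (ENSMUSG00000007440 and ENSMUSG00000102206). Pcdhb1 was not analysed here.

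Each library held 22984556 to 35969254 recovered reads, and all 57 members passed the filter on low values (at least 10 in at least 3 libraries). Xist, transcribed from the silenced X chromosome, was at most 10.1 normalised counts (deposited gene counts scaled by library) in males and 11388 to 39198 in females, and the Y-linked Ddx3y was 1178 to 1953 in males and at most 3.29 in females. Shank3 averaged 8457 ± 1262 in HT and 7593 ± 1072 in WT mice (SD, n = 27 and 29), with no call between genotypes; a gene-level value that joins all transcripts does not check this allele. The cortical marker Slc17a7 was high in every library (28646 or more), but markers of the olfactory bulb (Cdhr1, 72.8 to 6577) and of the striatum (Drd2, 2.29 to 594) varied widely. HT vehicle female replicate 1 held choroid plexus RNA and HT lithium female replicate 5 had low mitochondrially encoded RNA (each over 5 median absolute deviations away from the other libraries). The labels name no litter or dam, and the p-values therefore take each mouse as independent.

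Levels along the locus were dominated by the C-type members. Per kb of transcript, Pcdhgc5, which is known to bind GABA-A receptors, averaged 1363 ± 205 normalised counts (SD over 56 libraries), the highest of the 57. Pcdhgc3, known to promote dendrite branching through Axin1, averaged 770 ± 87.2 per kb, and Pcdhgc4, known as the isoform needed for the survival of many interneurons, 753 ± 139 per kb. These 3 genes together made up 64.1% of the gamma sum. Pcdhac2, the isoform that serotonergic axons need to spread over their targets, averaged 466 ± 60.5 per kb, and with Pcdhac1 (50.2 ± 9.09 per kb) it made up 44.5% of the alpha sum. Pcdhac1 was thus not high as the other C-type members were: it ranked among the ordinary alpha members.

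Outside the C-type members the levels per kb lay closer together. The highest were Pcdha12 in the alpha cluster (109 ± 19.9 per kb), Pcdhb17 and Pcdhb9 in the beta cluster (96.8 ± 10.8 and 95.1 ± 10.7 per kb, which do not differ beyond their spread), and Pcdhga11 in the gamma cluster (186 ± 28.5 per kb). The medians were 59.4 per kb over the 12 ordinary alpha members, 36.5 over the 21 beta members, 92.7 over the 12 gamma A members and 49.7 over the 7 gamma B members. The lowest members were Pcdha8 (6.28 ± 3.54 per kb), Pcdhgb8 (8.93 ± 2.74 per kb) and, among beta genes, Pcdhb4 (18 ± 3.99 per kb). Divided by the length of the first exon instead of the transcript, the same whole-gene values were 2464 per kb for Pcdhgc5 and 13.5 for Pcdha8. Reads of the first exon were not counted apart, so these values also hold reads from the shared exons.

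**Figure D1:**
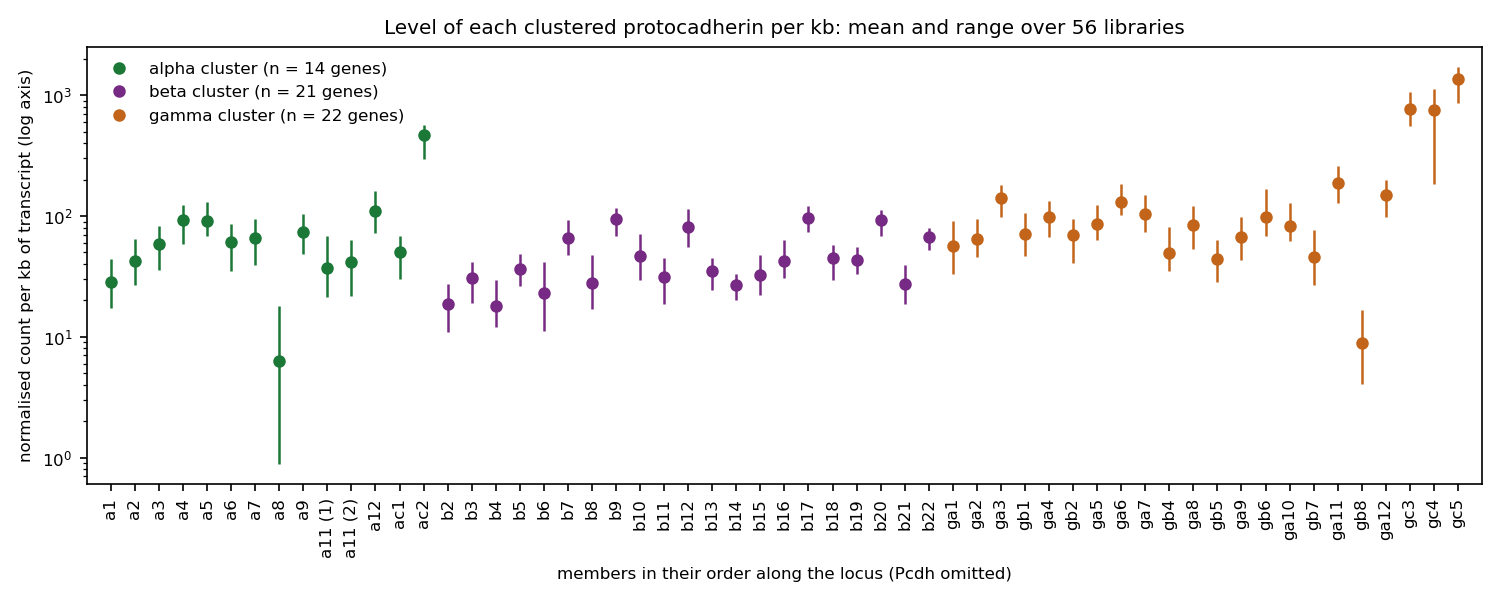
Level of each member per kb of transcript on a log axis, in the order of the genes along the locus, with Pcdha11 (1) and (2) for the identifiers ENSMUSG00000007440 and ENSMUSG00000102206. Points are means over 56 libraries and lines run from the lowest to the highest library. Pcdhgc5 (1363), Pcdhgc3 (770), Pcdhgc4 (753) and Pcdhac2 (466) stand above the rest, and Pcdha8 (6.28) and Pcdhgb8 (8.93) below.

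Members differed in how steady they were between mice of the same group. Within groups the median coefficient of variation was 17.8% in the alpha cluster, 14.2% in the beta cluster and 14.6% in the gamma cluster. Counting error alone gave medians of 5.63, 8.54 and 5.02%. It leaves out how shared reads were divided among members, which was not measured. Pcdhb22 and Pcdhb20 were among the steadiest over all libraries (9.23 and 9.92%). Pcdha8 was the most variable (56.4%), with a normalised count of 4.75 in the lowest library and 96.7 in the highest at a counting error of 17.4%. In Pcdhgc4 1 library stood apart: HT lithium female replicate 5, the library low in mitochondrially encoded RNA, had 923 normalised counts, while the other libraries had 2654 to 5699.

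Summed over a cluster, normalised counts averaged 6772 ± 582 for alpha, 4149 ± 335 for beta and 21625 ± 1231 for gamma (SD, n = 56). The alpha sum had group means from 6252 ± 983 in WT fluoxetine females to 7235 ± 404 in HT vehicle males, and the libraries of these 2 groups overlapped. The beta sum ran from 3913 ± 151 in HT lithium males to 4487 ± 414 in WT fluoxetine females. It averaged 4399 ± 289 in WT lithium males and 4457 ± 338 in WT lithium females, against 4136 ± 84.4 in WT vehicle males and 3967 ± 259 in WT vehicle females.

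The gamma sum was lowest in vehicle-treated females of both genotypes. It was 21584 to 23239 in the 3 HT vehicle males, against 18609 to 20283 in the 5 HT vehicle females, and the groups did not overlap. It was 21766 to 23022 in the 5 WT vehicle males, against 19646 to 20214 in the 5 WT vehicle females, again with no overlap. In the other 10 groups the means lay between 21468 and 22553. Lithium females had sums of 19800 to 22531 in HT mice and 21007 to 22931 in WT mice, and fluoxetine females 20410 to 23689 in HT mice and 21678 to 23008 in WT mice; of these, the HT lithium females overlapped with the vehicle females of their genotype. Relative to vehicle females the mean was 14.5% higher in HT vehicle males, 11.2% higher in WT vehicle males, 11.5 and 10.9% higher in HT lithium and HT fluoxetine females, and 11.3 and 13.02% higher in WT lithium and WT fluoxetine females. These are sums over chosen genes and carry no test.

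The mean was lower in vehicle females for most gamma members. Of the 22 gamma members, 17 had a higher mean in HT vehicle males than in HT vehicle females. In WT vehicle mice 20 did. All vehicle females lay below all vehicle males in only 2 of the 22 in each genotype. The share of all genes is not given here, and gamma members share constant exons. The C-type gamma sum was 13812 to 15274 in HT vehicle males, against 11493 to 13162 in HT vehicle females. It was 13583 to 14648 in WT vehicle males, against 11983 to 13191 in WT vehicle females. Among the C-type members Pcdhgc5 differed most in counts, at 6474 ± 872 in HT vehicle males, against 5534 ± 835 in HT vehicle females, and at 6426 ± 773 in WT vehicle males, against 5395 ± 365 in WT vehicle females. Gamma members are richer in GC (median 53.0%) than alpha members (47.3%), beta members (45.6%) or all listed genes (49.3%), and libraries differed in the slope of log2 level on GC content (log2 units per 10 percentage points, centred on all libraries). The slope averaged -0.066 in HT vehicle males, against -0.057 in HT vehicle females, 0.058 in WT vehicle males, against -0.072 in WT vehicle females, and 0.097 in WT fluoxetine females; its part in the gamma sums was not tested beyond the correction that follows. The level of the 4 oligodendrocyte progenitor markers (Pdgfra, Cspg4, Vcan and Gpr17, none at 0 in any library) was also lowest in vehicle females. It was 0.988 to 1.06 in HT vehicle males, against 0.726 to 0.957 in HT vehicle females, and 0.954 to 1.186 in WT vehicle males, against 0.862 to 1.02 in WT vehicle females, relative to the mean of all libraries. The means of Pdgfra, Cspg4 and Gpr17 were lower in vehicle females of both genotypes. Vcan was lower in HT vehicle females (914, against 1094 in males) but nearly equal in WT mice (1024, against 1026 in males). Deviations of single clustered protocadherins from their group means had r from -0.36 to 0.42 with the progenitor marker level. The part of these markers in the gamma sums was not tested. After a correction of each library for GC content and length, chosen after these values were seen, the gamma mean was 22377 in HT vehicle males, against 20558 in HT vehicle females (8.85% higher in males, no overlap), and 22082 in WT vehicle males, against 21054 in WT vehicle females (4.88% higher in males, no overlap). The drug-treated females were then 2.24 to 4.16% above the vehicle females of their genotype, and their libraries overlapped.

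**Figure D2:**
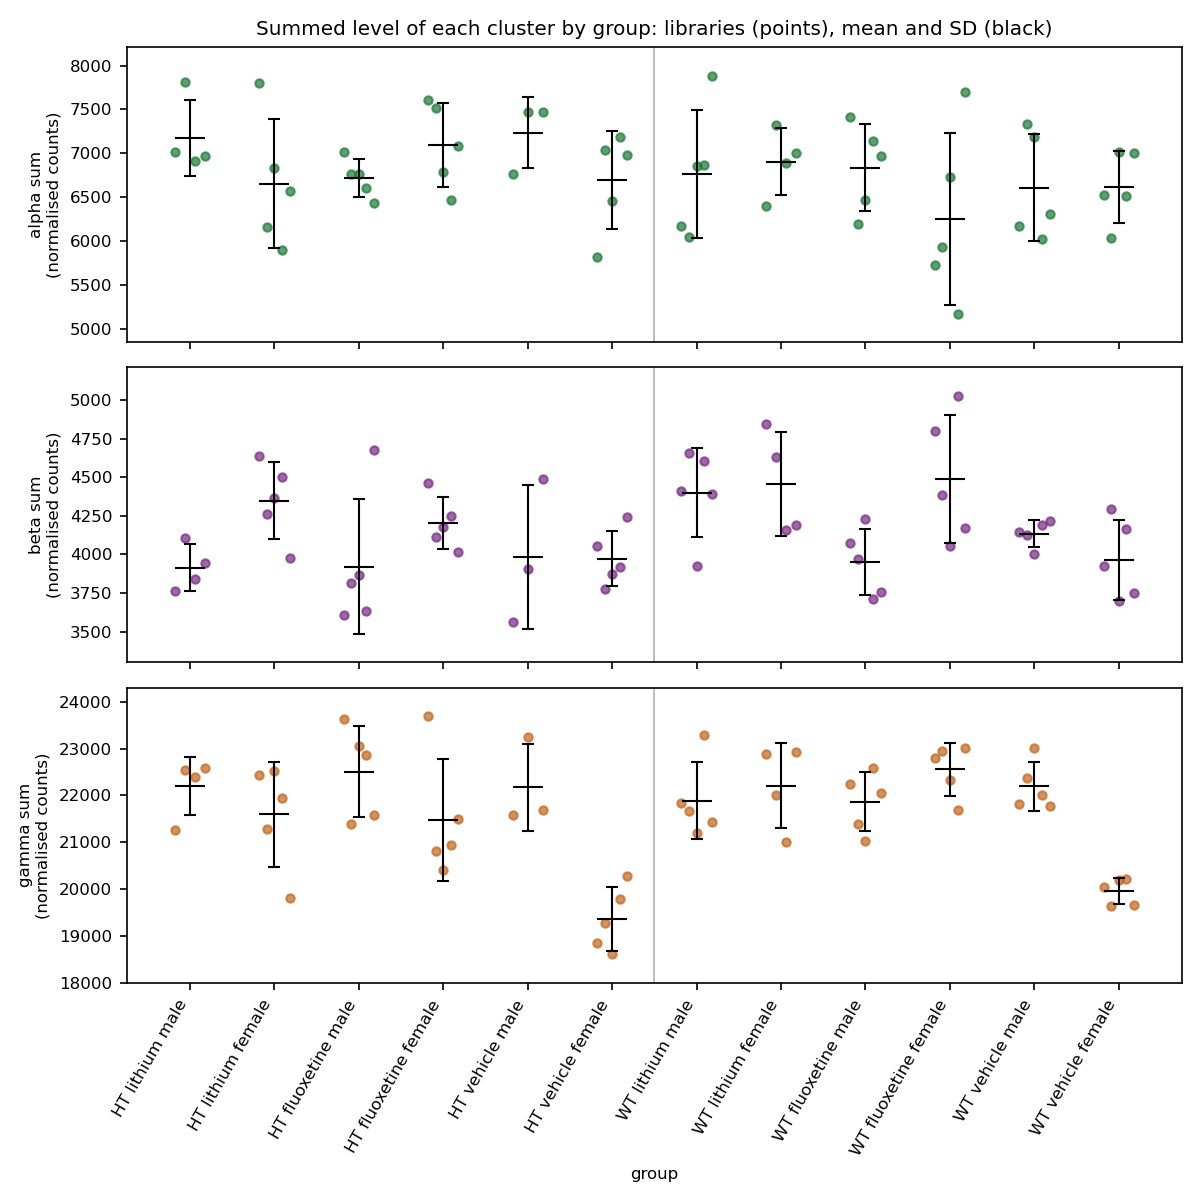
Summed normalised counts of the alpha, beta and gamma clusters in each library, by genotype, drug and sex, with the group mean and SD in black. The vertical axes do not start at 0. The mean gamma sums of HT vehicle females (19363) and WT vehicle females (19954) are the lowest of the 12, and of the other groups' libraries HT lithium female replicate 5 (19800) falls within their ranges.

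Males were compared with females over both genotypes and all 3 treatments. Of all tested genes 0.283% were called (51 of 18026), and of the 57 members 4 (7.02%), 2 higher and 2 lower in males; without the 2 libraries that stood apart 3 were called. Of the 51 genes, 11 lay on X, 6 on Y and 34 on autosomes; no other gene of chromosome 18 was called. At an unadjusted p below 0.05 stood 12.9% of all tested genes, and 21 of the 57 members (36.8%), 7 of them higher and 14 lower in males. The median log2 change over the members was -0.01, against 0.00 over all genes, so that the members differed in both directions and not as a block.

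The members higher in males were a pair of gamma B genes. Pcdhgb4 had 183 to 375 normalised counts in the 27 males (median 254), against 162 to 281 in the 29 females (median 203). The ranges overlapped, but the mean was higher in males in all 6 combinations of genotype and drug. The log2 change was 0.30 ± 0.06 (SE; limma adjusted p = 0.00472), the second smallest p among the 17415 autosomal genes tested. Pcdhgb2 had 263 to 441 normalised counts in males (median 348), against 189 to 366 in females (median 301), and was also higher in males in all 6 combinations (log2 change 0.26 ± 0.06, limma adjusted p = 0.0188). Pcdhgb4 was called in all 13 other settings and with each library left out in turn; Pcdhgb2 lost its call only without HT vehicle male replicate 2 (adjusted p = 0.0625).

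The members lower in males were a pair of neighbouring beta genes, each a single-exon gene with its own promoter. Pcdhb10 had 84.6 to 156 normalised counts in males (median 120), against 112 to 204 in females (median 144), and was lower in males in all 6 combinations (log2 change -0.24 ± 0.06, limma adjusted p = 0.0354). Pcdhb9 had 208 to 340 in males (median 273), against 260 to 355 in females (median 306), and was lower in males in 5 of 6 combinations (log2 change -0.16 ± 0.04, limma adjusted p = 0.0496). Both were less stable than the gamma B pair. With the olfactory bulb level as a covariate the adjusted p was 0.0584 for Pcdhb10 and 0.0758 for Pcdhb9, and with the striatal level it was 0.109 and 0.16; the call ended without any 1 of 15 of the 56 libraries for Pcdhb10 (HT vehicle male replicate 1 among them, adjusted p = 0.0694) and of 41 for Pcdhb9 (HT vehicle male replicate 2 among them, adjusted p = 0.108). Pcdhb9 also missed the threshold with a pseudocount of 5 (0.0525), array weights (0.06), the replicate number as a block (0.0631) and without the 2 libraries that stood apart (0.0884).

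**Figure D3:**
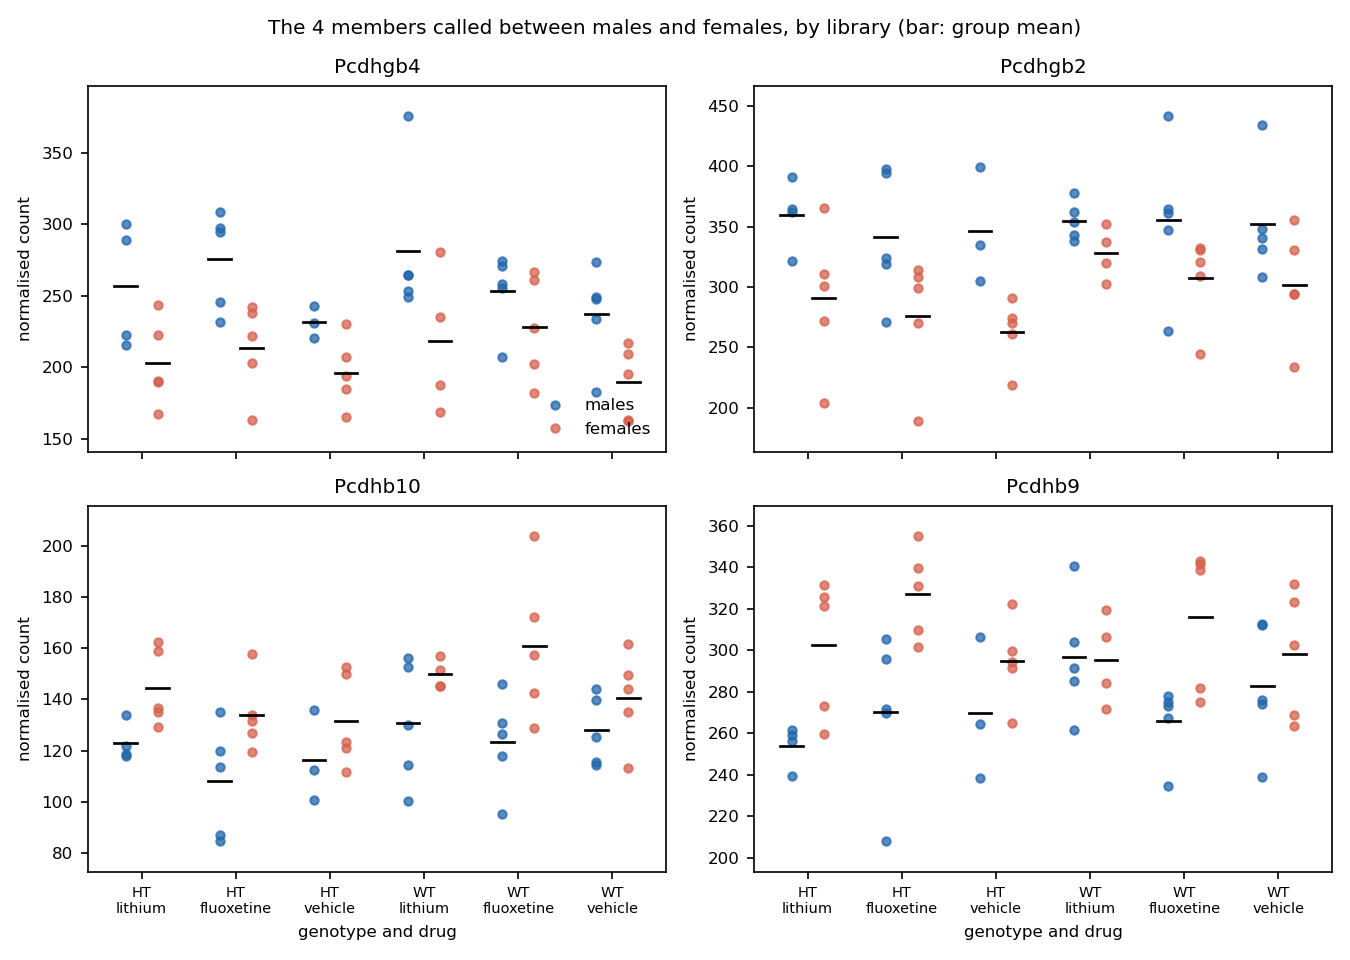
Normalised counts of Pcdhgb4, Pcdhgb2, Pcdhb10 and Pcdhb9 in each library, males (left, blue) and females (right, red) in each combination of genotype and drug, with the group mean as a bar; the vertical axes do not start at 0. The male mean of Pcdhgb4 and Pcdhgb2 lies above the female mean in all 6 combinations, and that of Pcdhb10 below it.

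The direction of the difference changed along the locus. In the upstream stretch of the beta cluster, from Pcdhb2 to Pcdhb12, all 11 members had a negative log2 change (lower in males), from -0.25 to -0.04 with a median of -0.16. Each change averages 6 combinations of genotype and drug. Of the 11, only Pcdhb10, Pcdhb11 and Pcdhb12 were lower in males in all 6, while Pcdhb7 was lower in 3 and higher in 3. In WT vehicle mice some of the 11 were higher in males, Pcdhb4 (0.40) and Pcdhb2 (0.13) among them. In the downstream stretch, from Pcdhb13 to Pcdhb22, 5 were positive and 5 negative, with a median of 0.00. Past the called genes, Pcdhb12 (-0.19 ± 0.05, limma adjusted p = 0.0788) and Pcdhb3 (-0.21 ± 0.06, limma adjusted p = 0.0874) came closest to the threshold in the beta cluster and Pcdha9 in the alpha cluster (0.23 ± 0.06, limma adjusted p = 0.0939). All 5 C-type members were positive, from 0.02 to 0.14, and none was called. The split of the beta cluster was made after these values were seen, and it carries no test. Beta members share up to 22.5% of their 31-base stretches with another member. They also varied together within groups (median r = 0.24 over pairs), so the 11 signs are not independent.

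Olfactory bulb and striatal markers had higher means in females, with a wide spread and no test. Relative to the mean of all libraries, the olfactory marker level averaged 0.75 ± 0.77 in males and 1.23 ± 1.24 in females, and the striatal level 0.852 ± 0.193 in males and 1.14 ± 0.573 in females (SD, n = 27 and 29). The olfactory mean was higher in males in HT fluoxetine mice (0.729, against 0.557) and WT lithium mice (1.15, against 1.07), and higher in females elsewhere. The striatal mean was higher in females except in HT vehicle mice (0.964 in males, 0.960 in females). In WT lithium females 1 library reached 3.43. With either level as a covariate 2 of the 4 members were called, Pcdhgb4 and Pcdhgb2. None of the genes of the other lists differed between the sexes past the threshold: the 12 nonclustered protocadherins, the 26 regulators of promoter choice and chromatin at the clusters, the 22 intracellular partners, the 19 genes flanking the locus and the 16 classical cadherins and catenins.

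**Figure D4:**
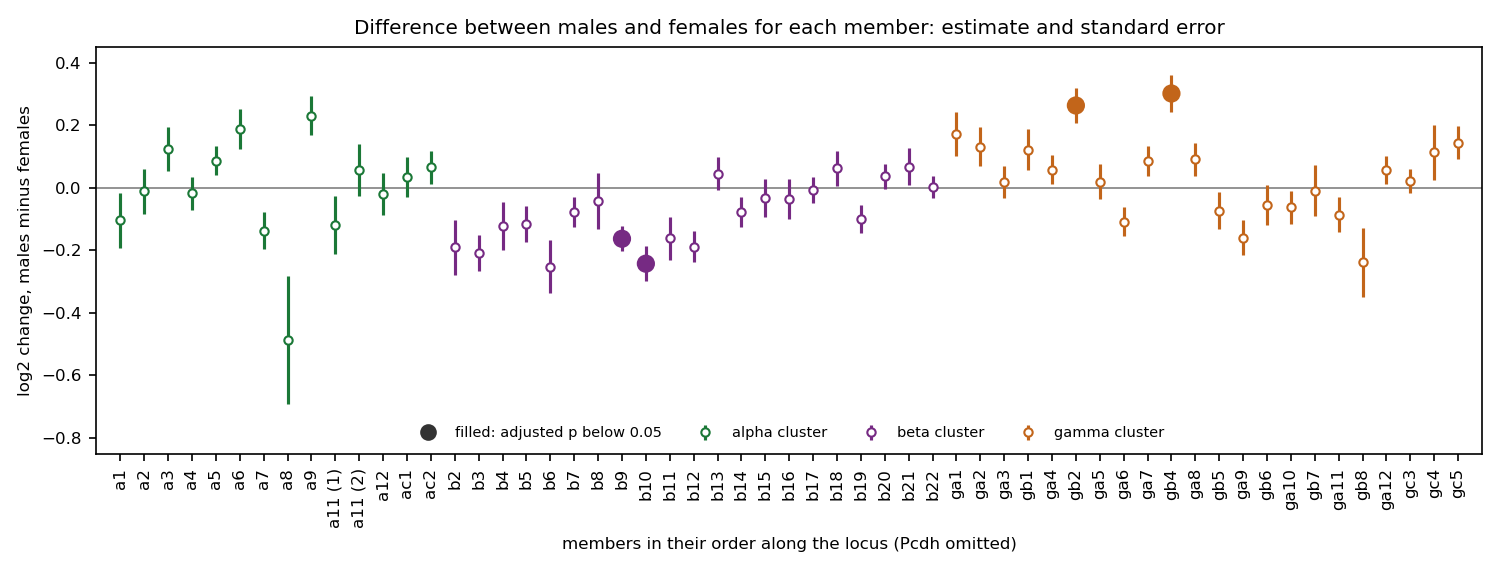
Log2 change, males minus females, with its standard error for each member in its order along the locus; Pcdha11 (1) and (2) are the identifiers ENSMUSG00000007440 and ENSMUSG00000102206. The called members (filled) are Pcdhgb4 (0.30) and Pcdhgb2 (0.26) above 0 and Pcdhb10 (-0.24) and Pcdhb9 (-0.16) below it, and the 11 points from Pcdhb2 to Pcdhb12 all lie below 0. Points are averages over genotype and drug, and most of these 11 members did not have the same sign in every combination.

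Lithium, which inhibits GSK3 and inositol monophosphatase, changed a small number of members in each genotype. In WT mice 11.7% of all tested genes were called between lithium and vehicle, and 3 of the 57 members (5.26%), 2 of them higher and 1 lower; the difference between these shares was not tested. At an unadjusted p below 0.05 the shares were 22.8% of the members (13 of 57) and 25.5% of all genes. Among the members, 47 of 57 had a positive log2 change with a median of 0.10, against 0.00 over all genes, and the beta cluster leaned furthest, with 20 of 21 positive and a median of 0.14.

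In WT mice Pcdhb14 and Pcdhb21 rose and Pcdhga7 fell. Pcdhb14 had 229 to 269 normalised counts in the 5 lithium males and 241 to 265 in the 4 lithium females, against 175 to 249 in the 5 vehicle males and 179 to 251 in the 5 vehicle females; the ranges overlapped in both sexes (log2 change 0.25 ± 0.08, limma adjusted p = 0.0304). Pcdhb21 had 145, 185, 136, 153 and 167 in lithium males and 144, 142, 124 and 132 in lithium females, against 114, 142, 111, 120 and 132 in vehicle males and 97.7, 135, 104, 118 and 112 in vehicle females (log2 change 0.30 ± 0.10, limma adjusted p = 0.0411). Most lithium values lay above most vehicle values of the same sex, with overlap. Pcdhga7, a gamma A gene, had 398, 518, 365, 498 and 466 in lithium males, all below the 545 to 575 of vehicle males, and 423, 347, 495 and 427 in lithium females, against 465 to 537 in vehicle females (log2 change -0.28 ± 0.08, limma adjusted p = 0.0188).

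The Pcdhga7 fall was the steadiest of these calls: it held in all 13 other settings and ended only without WT lithium female replicate 2 (log2 change -0.24, limma adjusted p = 0.0659). Pcdhb14 stood at 0.14 with an adjusted p of 0.171 after correction for GC content and length and lost its call without any 1 of 7 libraries (0.22 and adjusted p = 0.0793 without WT vehicle female replicate 3). Pcdhb21 lost its call with the striatal covariate (adjusted p = 0.0528), after the GC and length correction (0.0506) and without any 1 of 12 libraries (0.081 without WT lithium male replicate 2).

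In HT mice 9.77% of all tested genes were called between lithium and vehicle, and 1 of the 57 members. Pcdhga9, a gamma A gene, had 267, 344, 298 and 292 normalised counts in lithium males, against 203, 299 and 204 in vehicle males, and 306, 324, 418, 426 and 369 in lithium females, against 334, 292, 276, 261 and 303 in vehicle females. The values overlapped in each sex (log2 change 0.35 ± 0.10, limma adjusted p = 0.0237). The call ended without HT lithium male replicate 2 (adjusted p = 0.06), HT vehicle male replicate 1 (0.0924) or HT vehicle male replicate 3 (0.0988), and after the correction for GC content and length (0.28, adjusted p = 0.122). Next came Pcdhgb5 (0.30 ± 0.11, limma adjusted p = 0.0621). Of the 57 members 40 were positive, with a median of 0.06, against 0.00 over all genes. At an unadjusted p below 0.05 stood 8 members (14.04%), against 23.5% of all genes.

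The members called in 1 genotype had these values in the other. Pcdhga7 was at 512 ± 68.1 and 512 ± 57.3 in HT lithium males and females, against 527 ± 53.1 and 459 ± 62.1 in HT vehicle males and females. Pcdhb14 was at 220 ± 26.3 and 249.7 ± 37.3 in HT lithium males and females, against 241 ± 39.6 and 236 ± 20.8 in HT vehicle males and females (log2 change -0.03 ± 0.09, limma adjusted p = 0.882). Pcdhb21 was at 116 ± 22.4 and 133 ± 16.7 in HT lithium males and females, against 141 ± 34.5 and 117 ± 22.04 in HT vehicle males and females (log2 change -0.04 ± 0.11, limma adjusted p = 0.873). None of these 3 was called in HT mice. Pcdhga9 was at 309 ± 42.5 and 393 ± 74.5 in WT lithium males and females, against 326 ± 47.7 and 300.2 ± 54.3 in WT vehicle males and females (log2 change 0.16 ± 0.10, limma adjusted p = 0.31). The difference between the lithium effects, HT minus WT, was 0.34 ± 0.12 for Pcdhga7, -0.28 ± 0.12 for Pcdhb14, -0.34 ± 0.15 for Pcdhb21 and 0.19 ± 0.14 for Pcdhga9, and none was called (limma adjusted p = 0.378, 0.455, 0.465 and 0.726). For that difference 0.0166% of all tested genes were called and 0 of 57 members by limma, edgeR or DESeq2; 6 members had an unadjusted p below 0.05 (10.5%, against 9.5% of all genes). Both lithium comparisons use their own vehicle mice, while the difference uses them all.

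Fluoxetine, an inhibitor of serotonin reuptake, changed no member past the threshold when the sexes were averaged. In WT mice 5.18% of all tested genes were called and 0 of 57 members by limma, edgeR or DESeq2, with 3 at an unadjusted p below 0.05 (5.26%, against 19.6% of all genes). The smallest p values were those of Pcdhgb5 (0.23 ± 0.10, limma adjusted p = 0.159) and Pcdhga4 (0.16 ± 0.08, limma adjusted p = 0.215). In HT mice the share called was 0 of all genes and 0 of the members by each tool, with 2 members at an unadjusted p below 0.05 (3.51%, against 7.25% of all genes), Pcdhga12 (0.28 ± 0.08, limma adjusted p = 0.3) and Pcdhga9 (0.23 ± 0.10, limma adjusted p = 0.578). The difference between the fluoxetine effects, HT minus WT, was called for 0 of all genes and 0 members by each tool, with 1 member at an unadjusted p below 0.05 (1.75%, against 3.52% of all genes), Pcdhga9 (0.28 ± 0.14, limma adjusted p = 1). Pcdha3 came next (0.29 ± 0.17, limma adjusted p = 1).

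In WT mice the fluoxetine effect differed between the sexes for 7.74% of all tested genes and for 1 of the 57 members, the beta gene Pcdhb13; at an unadjusted p below 0.05 stood 14 members (24.6%) and 24.7% of all genes. Pcdhb13 had 121, 135, 103, 135 and 97.4 normalised counts in fluoxetine males, against 154, 161, 120, 141 and 110 in vehicle males. In females it had 166, 163, 147, 160 and 145 under fluoxetine, against 95.5, 131, 132, 119 and 91 under vehicle. The fluoxetine females thus all lay above the vehicle females, while the fluoxetine males overlapped with the vehicle males and had the lower mean. The log2 change was -0.21 ± 0.12 in males and 0.47 ± 0.12 in females, and the difference, males minus females, was -0.69 ± 0.17 (limma adjusted p = 0.0136). It was not called with the 4 compared groups alone (-0.69, adjusted p = 0.0552) or after the correction for GC content and length (-0.76, adjusted p = 0.0586). In HT mice Pcdhb13 stood at 133 ± 18.2 in fluoxetine males, against 143 ± 7.25 in vehicle males, and at 119 ± 19.1 in fluoxetine females, against 116 ± 11.2 in vehicle females.

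All 21 beta members and 21 of the 22 gamma members had a negative difference between the sexes in this comparison, with medians of -0.25 and -0.29, while the alpha cluster was split (7 and 7, median 0.01). The median over all genes was -0.01. Members share sequence, so these signs are not independent, and a similar lean under lithium is given below. In the fluoxetine comparison Pcdhac1 went the other way (0.59 ± 0.21, limma adjusted p = 0.075) and Pcdhgc3 with the rest (-0.33 ± 0.13, limma adjusted p = 0.0914). The WT fluoxetine females were split in tissue markers: their olfactory marker level was 4.06, 2.74, 0.127, 4.41 and 0.0769 in replicates 1 to 5. It averaged 2.28 ± 2.09 in them, against 1.195 ± 0.77 in WT vehicle females, and 0.584 ± 0.677 in WT fluoxetine males, against 1.14 ± 0.77 in WT vehicle males. The slope of log2 level on GC content averaged 0.097 in WT fluoxetine females, against -0.072 in WT vehicle females. It was -0.040 in WT fluoxetine males, against 0.058 in WT vehicle males. The part of the olfactory level in the difference was not tested beyond the covariate fit, in which Pcdhb13 remained called. That of the slope was not tested beyond the GC and length correction, after which Pcdhb13 was not called.

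The other differences between the sexes gave no member. In the lithium effect, males minus females, 20 of 22 gamma and 13 of 21 beta members were negative in WT mice. In HT mice 19 of 22 gamma and 19 of 21 beta members were. For fluoxetine in HT mice 13 gamma and 15 beta members were negative. In each genotype the lithium and fluoxetine differences share their vehicle mice. The lithium effect, males minus females, was called for 0 of all genes in WT mice and 0.172% in HT mice, and for 0 of 57 members in each by limma, edgeR and DESeq2, with 6 members in WT mice (10.5%, against 8.63% of all genes) and 5 in HT mice (8.77%, against 8.85%) at an unadjusted p below 0.05. The smallest p in WT mice was that of Pcdhga6 (-0.42 ± 0.15, limma adjusted p = 0.394), followed by Pcdhga9 (-0.46 ± 0.19, limma adjusted p = 0.462), and in HT mice that of Pcdhgc3 (-0.39 ± 0.14, limma adjusted p = 0.335), followed by Pcdhga3 (-0.42 ± 0.19, limma adjusted p = 0.51). The fluoxetine effect in HT mice differed between the sexes for 0.0277% of all genes and 0 members by each tool (3 at an unadjusted p below 0.05, 5.26%, against 6.62% of all genes), with Pcdhga5 first (-0.56 ± 0.20, limma adjusted p = 0.504) and Pcdhga4 next (-0.43 ± 0.17, limma adjusted p = 0.591). The genotype effect under vehicle differed between the sexes for 0 of all genes and 0 members by each tool (3 at an unadjusted p below 0.05, 5.26%, against 8.73% of all genes), with Pcdha5 first (0.45 ± 0.17, limma adjusted p = 0.439) and Pcdhga9 next (-0.46 ± 0.20, limma adjusted p = 0.516).

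Between genotypes no member was called in any treatment. Under vehicle, lithium and fluoxetine alike the share called between HT and WT mice was 0 of all tested genes and 0 of the 57 members by limma, edgeR and DESeq2. At an unadjusted p below 0.05 stood 4 members under vehicle (7.02%, against 6.21% of all genes), 9 under lithium (15.8%, against 9.82%) and 5 under fluoxetine (8.77%, against 11.2%). Under vehicle the smallest p values were those of Pcdhga9 (-0.25 ± 0.10, limma adjusted p = 0.742) and Pcdhgb1 (-0.25 ± 0.12, limma adjusted p = 0.781). Under lithium they were those of Pcdha7 (-0.31 ± 0.10, limma adjusted p = 0.348) and Pcdhga7 (0.23 ± 0.09, limma adjusted p = 0.384), and under fluoxetine those of Pcdhga4 (-0.27 ± 0.08, limma adjusted p = 0.22) and Pcdhb19 (-0.22 ± 0.07, limma adjusted p = 0.287). Median log2 changes over the members were -0.04, -0.08 and -0.04 under vehicle, lithium and fluoxetine, against 0.00, -0.01 and 0.00 over all genes.

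The C-type members carried 44.5% of the alpha sum and 64.1% of the gamma sum, and none was called in any of the 15 comparisons. Pcdhgc5 had 7252 ± 649 normalised counts in HT lithium males and 6476 ± 1039 in HT lithium females, against 6474 ± 872 in HT vehicle males and 5534 ± 835 in HT vehicle females. In WT mice it had 6897 ± 794 in lithium males and 6854 ± 1006 in lithium females, against 6426 ± 773 in vehicle males and 5395 ± 365 in vehicle females. Its log2 change under lithium was 0.20 ± 0.10 in HT mice (limma adjusted p = 0.211) and 0.22 ± 0.09 in WT mice (limma adjusted p = 0.11). Pcdhac2 lay between 2474 ± 700 in WT fluoxetine females and 3007 ± 75.2 in HT vehicle males, and Pcdhgc3 between 3196 ± 396 in HT vehicle females and 4055 ± 729 in WT fluoxetine females. Pcdhgc4 averaged 3376 ± 441 to 4465 ± 671 by group, lowest in WT fluoxetine males and highest in HT fluoxetine males.

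Among mice of the same group the C-type members moved in opposite directions. Taking each library's log2 deviation from its group mean, over 56 libraries, Pcdhac2 and Pcdhgc5 varied together (Pearson r = 0.82, Spearman rho = 0.74), and so did Pcdhac1 and Pcdhac2 (r = 0.68, rho = 0.65). Pcdhgc3 ran against Pcdhgc5 (r = -0.78, rho = -0.78) and against Pcdhac2 (r = -0.74, rho = -0.73). Pcdhgc4 was tied to none of them (r from -0.21 to 0.12). Without the 2 libraries farthest from the median, the pair of Pcdhac2 and Pcdhgc5 had r = 0.77 and that of Pcdhgc3 and Pcdhgc5 r = -0.74.

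These deviations followed the markers of cell types and tissue in the libraries. Pcdhac2 had r = 0.92 (rho = 0.92, r = 0.90 without the 2 farthest libraries) with the level of 8 cortical excitatory neuron markers, Slc17a7 among them, and r = -0.77 with the olfactory bulb markers. Pcdhgc5 had r = 0.80 with the excitatory markers and -0.79 with the astrocyte markers. Pcdhgc3 went the opposite way, with r = 0.80 for the astrocyte markers (rho = 0.83) and -0.75 for the excitatory ones. Pcdhgc4 had r = 0.13 with the excitatory markers and 0.75 with the mitochondrially encoded RNAs, which came to 0.48 without the 2 libraries farthest out, HT lithium female replicate 5 among them. Libraries share tissue make-up, depth and base composition, so these are descriptions, and they carry no p.

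**Figure D5:**
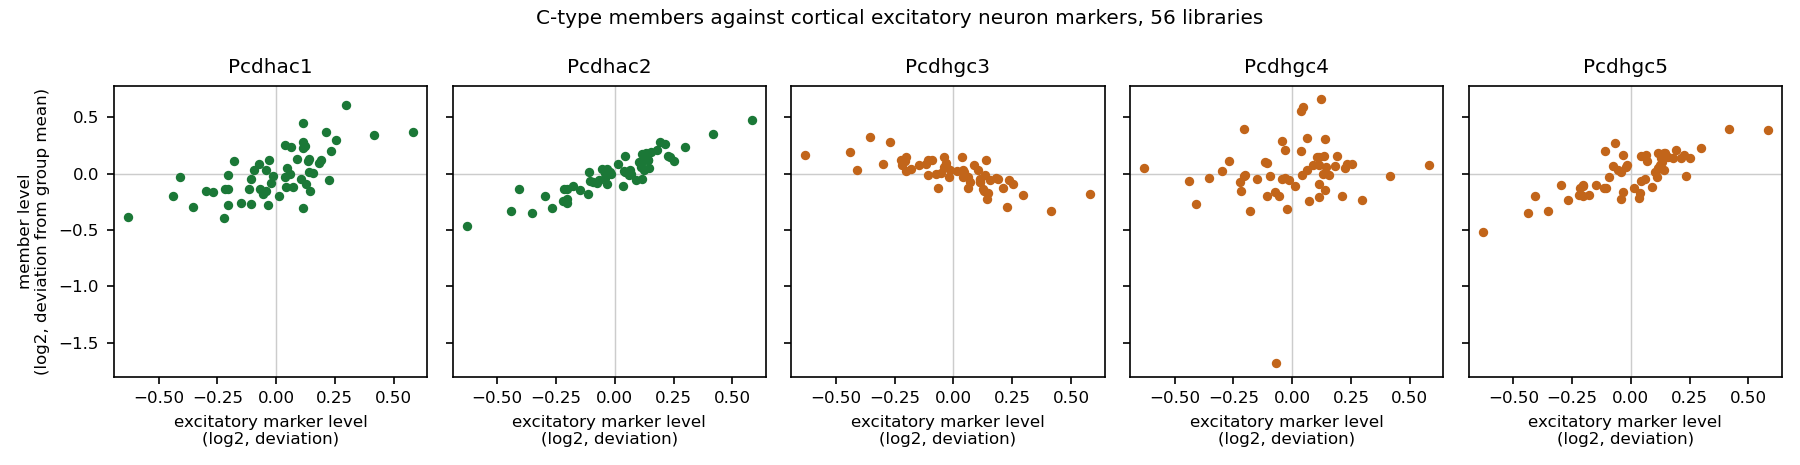
Log2 level of each C-type member against that of the cortical excitatory neuron markers, both as deviations from the group mean, 1 point for each of 56 libraries. Pcdhac2 (r = 0.92), Pcdhgc5 (r = 0.80) and Pcdhac1 (r = 0.67) rise with the markers, Pcdhgc3 (r = -0.75) falls, and Pcdhgc4 (r = 0.13) shows no trend; its low point is HT lithium female replicate 5.

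Some other members were as closely tied to these. Pcdhgb6, a gamma B gene, ran against Pcdhac2 (r = -0.75), and the beta gene Pcdhb16 ran with Pcdhgc3 (r = 0.69) and with Pcdhgb6 (r = 0.69). With the olfactory bulb markers Pcdhb16 had r = 0.78 and Pcdhgb6 r = 0.79, and with the excitatory markers each had r = -0.78. Most pairs had smaller correlations. Pairs of beta members had a median r of 0.24 (187 of 210 pairs positive), pairs of gamma members 0.09 and pairs of alpha members 0.05. Neighbours within a cluster had a median r of 0.17 over 54 pairs, from -0.29 to 0.69, the highest being Pcdhga10 with Pcdhgb7. Deviations of 44 of the 57 members were positively correlated with the olfactory bulb markers, 11 of them above 0.5, and 4 members, Pcdhac1, Pcdhac2 and Pcdhgc5 among them, were below -0.5.

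Among the nonclustered protocadherins, which are encoded apart from the locus or at its edge, Pcdh1 rose under lithium in WT mice (log2 change 0.35 ± 0.07, limma adjusted p = 0.000725) and in HT mice (0.33 ± 0.08, limma adjusted p = 0.00328), and under fluoxetine in WT mice (0.32 ± 0.07, limma adjusted p = 0.00371). Pcdh17 rose under lithium in WT mice (0.27 ± 0.08, limma adjusted p = 0.025). In the list of 12 this made 2, 1 and 1 higher and 0 lower in the 3 comparisons, with medians of -0.03, -0.07 and 0.07. The shares called were 16.7, 8.33 and 8.33%, against 11.7, 9.77 and 5.18% of all genes.

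Of the 26 regulators of promoter choice and chromatin at the clusters, 3 rose under lithium in WT mice, 1 under lithium in HT mice and 3 under fluoxetine in WT mice, and 0 fell. These are 11.5, 3.85 and 11.5% of the list, against 11.7, 9.77 and 5.18% of all genes. Tet3, an enzyme that oxidises methylated cytosine, rose in all 3 comparisons (0.37 ± 0.06, 0.33 ± 0.06 and 0.33 ± 0.06, limma adjusted p = 3.83e-05, 0.000569 and 0.000575). Setdb1, a histone H3 lysine 9 methyltransferase known to act at this locus, rose in WT mice under lithium (0.17 ± 0.04, limma adjusted p = 0.00146) and under fluoxetine (0.12 ± 0.04, limma adjusted p = 0.0323). Nipbl, the cohesin loader, rose under lithium in WT mice (0.21 ± 0.07, limma adjusted p = 0.0285), and Dnmt1, the maintenance DNA methyltransferase, under fluoxetine in WT mice (0.18 ± 0.05, limma adjusted p = 0.0419). The list medians were 0.02, -0.00366 and 0.04.

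Of the 22 intracellular partners, which include the kinases, small GTPases and WAVE complex genes that act below protocadherins, 3 fell and 0 rose under lithium in WT mice, 4 fell and 1 rose under lithium in HT mice, and 2 fell and 0 rose under fluoxetine in WT mice. These are 13.6, 22.7 and 9.09% of the list, against 11.7, 9.77 and 5.18% of all genes. Rac1, a GTPase that activates the WAVE complex, fell in all 3 (-0.10 ± 0.03, -0.13 ± 0.03 and -0.10 ± 0.03, limma adjusted p = 0.0113, 0.00293 and 0.0186). Cdc42 fell under lithium in WT mice (-0.17 ± 0.05, limma adjusted p = 0.017) and HT mice (-0.23 ± 0.05, limma adjusted p = 0.00441), and the WAVE complex subunit Abi1 in HT mice (-0.23 ± 0.06, limma adjusted p = 0.0112). The 2 comparisons in WT mice share their vehicle mice.

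Of the 19 genes flanking the locus, 1 rose under lithium in WT mice (Pcdh1), and 2 rose and 2 fell under lithium in HT mice. Under fluoxetine in WT mice 1 rose (Pcdh1, which is also in the nonclustered list). These are 5.26, 21.1 and 5.26% of the list, against 11.7, 9.77 and 5.18% of all genes. In HT mice under lithium Arap3, a GTPase-activating protein, rose (0.39 ± 0.11, limma adjusted p = 0.0132) and the histone deacetylase gene Hdac3 fell (-0.12 ± 0.04, limma adjusted p = 0.0186). Among 16 classical cadherins and catenins, Ctnnb1, which encodes beta-catenin, fell under lithium in WT mice (-0.27 ± 0.04, limma adjusted p = 2.77e-05) and HT mice (-0.25 ± 0.05, limma adjusted p = 0.000292), and Cdh10 fell under lithium in WT mice (-0.31 ± 0.07, limma adjusted p = 0.00332). Ctnnd1, which encodes p120 catenin, rose under lithium in WT mice (0.19 ± 0.04, limma adjusted p = 0.000567) and HT mice (0.15 ± 0.04, limma adjusted p = 0.0144) and under fluoxetine in WT mice (0.18 ± 0.04, limma adjusted p = 0.00183). Of the 16 genes, 1 rose and 2 fell under lithium in WT mice, and 1 rose and 1 fell under lithium in HT mice. Under fluoxetine in WT mice 1 rose and 0 fell. These are 18.8, 12.5 and 6.25% of the list, against 11.7, 9.77 and 5.18% of all genes.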

How the data were processed

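Stranded poly(A) libraries of prefrontal cortex were sequenced, per the labels' protocols. Values in the deposited table are normalised counts, a signal in which the authors divided gene counts by 1 size factor per library. Salmon 0.11.2, R 3.6.0, DESeq2 1.19.11 and GRCm38 are named, with no role, in the submitters' processing notes. Of 59 columns, 56 were matched to samples, 3 matched none and were not used, and 1 sample, a WT lithium female, was not analysed here. Whole reads were recovered from every column (100% of values whole, tolerance 1e-06); symbols matched 18077 of 18088 rows. No 2 libraries of a group agreed within sampling noise (105 pairs, smallest chi-square per degree of freedom 4.94).

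Log2(value + 1) of the 18026 genes with at least 10 in at least 3 libraries entered 1 limma-trend fit of 12 groups (limma 3.58.1, R 4.3.3, 44 residual degrees of freedom, two-sided). A gene was called where its p, adjusted by Benjamini-Hochberg over all tested genes, was under 0.05, in 15 comparisons; fold changes of low genes are understated on this scale. Lengths, GC content and 31-base sharing came from GENCODE transcripts, through the constant exons for alpha and gamma members. The level of a marker list is the mean of its genes, each relative to its mean over all libraries. Alternatives were TMM factors, no filter, a pseudocount of 5, no trend, array weights, a block for the replicate number, a fit of the compared groups alone, olfactory and striatal levels as covariates, a GC and length correction (splines with 4 degrees of freedom), leaving out the 2 libraries more than 5 median absolute deviations out, edgeR 4.0.16 and DESeq2 1.42.0 on the recovered reads, and each library left out. The correction applied to cluster sums was chosen after seeing the data. The fit was tested on simulated data.

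The members and lists were chosen with earlier results of these data known. Members named are the C-type genes, the 2 highest and the lowest per kb of each cluster, members called in a comparison or, where none was, the 2 of smallest p, and those with a library far from its group; list genes named are up to 3 called per comparison. Pcdhb2, Pcdhb7, Pcdhb11, Pcdhb12, Pcdhb3, Pcdha9, Pcdhb16, Pcdhb20, Pcdhb22, Pcdhgb6 and Pcdhga10 with Pcdhgb7 were named after their values were seen.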

Additional observations from a re-analysis of the deposited data

Results flagged for a closer look

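Of 363 sets of group values checked (the 3 cluster sums and the named members in groups of 4 or 5 mice), 20 held a library far from the rest of its group; chance flags about 1 in 20 such sets. All values are normalised counts, and no cause was tested. The alpha sum was 7818 in HT lithium male replicate 2, above the 6909 to 7010 of the others, and Pcdhga5 was 503 in HT lithium female replicate 5, above the 405 to 425 of the others. The beta sum was 4675 in HT fluoxetine male replicate 5, above the 3611 to 3869 of the others, and Pcdhgb1 was 386 in HT fluoxetine female replicate 5, above the 273 to 306 of the others. Pcdhga6 was 821 in HT fluoxetine female replicate 2, above the 531 to 606 of the others, and Pcdhgc4 was 5698 in HT fluoxetine female replicate 1, above the 3052 to 3578 of the others. Pcdhgb4 was 375 in WT lithium male replicate 2, above the 249 to 265 of the others, and Pcdha7 was 499 in WT lithium female replicate 1, above the 396 to 410 of the others. Pcdha8 was 96.7 in WT fluoxetine female replicate 4, above the 43.5 to 57.2 of the others. The gamma sum was 21271 in HT lithium male replicate 1, below the 22386 to 22577 of the others, and Pcdhb4 was 45.6 in HT lithium male replicate 4, below the 53.7 to 55.04 of the others. Pcdhgb5 was 152 in HT lithium male replicate 1, below the 215 to 222 of the others, and Pcdhga7 was 352 in HT vehicle female replicate 4, below the 468 to 509 of the others. Pcdhac2 was 2164 in WT lithium female replicate 1, below the 2835 to 2921 of the others, and Pcdhb9 was 235 in WT fluoxetine male replicate 4, below the 267 to 278 of the others. Pcdhgb4 was 207 in WT fluoxetine male replicate 4, below the 255.3 to 275 of the others, and Pcdhgb5 was 169 in WT fluoxetine male replicate 1, below the 207 to 222 of the others. Pcdhgb2 was 245 in WT fluoxetine female replicate 5, below the 309 to 333 of the others, and Pcdhgb5 was 157 in WT vehicle male replicate 3, below the 217 to 241 of the others. Pcdha5 was 411 in WT vehicle female replicate 3, below the 488 to 512 of the others. Pcdhb13 differed between the sexes in its response to fluoxetine in WT mice by -0.69 on the log2 scale, males minus females (limma adjusted p = 0.0136).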

How the results depend on the processing

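The number of members called changed with some settings. The shares of all genes called in those settings are not given here. Whether other genes changed alike therefore cannot be read from these counts. For lithium against vehicle in WT mice it was 3, but 7 with the compared groups only, 5 with array weights, 9 with the olfactory bulb level as a covariate and 1 after the GC and length correction. In HT mice it was 1, but 4 with array weights, 2 with the olfactory covariate, 2 by DESeq2 and 0 after the GC and length correction. For males against females it was 4, but 2 with the olfactory and 2 with the striatal covariate, and 6 by DESeq2 and with array weights. For the sex difference of the fluoxetine effect in WT mice it was 1, but 10 with array weights and 0 with the compared groups only or the GC and length correction. Array weights also gave 3 members for fluoxetine in WT mice, 3 for HT against WT under fluoxetine and 1 for the sex difference of the lithium effect in HT mice, and the olfactory covariate gave 3 for fluoxetine in WT mice, where the count was 0. The cause was not tested. Leaving out each library gave 1 to 4 members for lithium in WT, 0 to 2 in HT, 1 to 5 between the sexes, 1 to 5 for the fluoxetine difference, and 0 to 0 elsewhere. No log2 change of a called member reversed in any setting. With the replicate number as a block, 3 members were called for lithium in WT, 1 in HT and 3 between the sexes. Deviations of same-numbered libraries of different groups had a median correlation of -0.00272 over 289 pairs (-0.441 to 0.452). For libraries with other numbers the range was -0.49 to 0.523. The check pools all groups, so it cannot exclude that numbers pair mice within some of them. Cluster sums moved by less than 1 SD without any 1 library. Leaving out 1 value cannot move a group mean by as much as 1 SD, so this is no measure of their steadiness. Counting error (median 5 to 9% per member) and groups of 3 to 5 mice limit what could be seen.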
